A study of Mus musculus with 4 samples.

Results

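The 10 genes described here are genes of the p53 stress response and the *Gadd45* stress genes of mouse cells. They were followed in medullary thymic epithelial cells (mTECs) with and without a conditional deletion of *Sirt6*. They are *Trp53*, which encodes p53, its inhibitors *Mdm2* and *Mdm4*, the p53 target genes *Ccng1*, *Zmat3*, *Phlda3* and *Sesn2*, and the growth arrest genes *Gadd45a*, *Gadd45b* and *Gadd45g*. They were taken by gene symbol from the 23337 genes of the count table, and all 10 were among the 18547 genes that passed the filter on low counts. RNA was sequenced from mTECs of 4-week-old C57BL/6 mice in 4 libraries, of which 2 carry the label WT and 2 the label *Sirt6* cKO. The sorted cells were CD45-, EpCAM+, UEA-1+ and Ly51-. In the *Sirt6* cKO mice both *Sirt6* alleles carried loxP sites and Cre recombinase was driven by *Foxn1*, a gene expressed in thymic epithelium, so the deletion was aimed at cortical and medullary epithelial cells alike. GEO's labels name the genotype Sirt6-/-. WT mice were Foxn1-Cre negative. The study describes the 2 samples of each group as independent and parallel. Whether a library pools several mice was not given in the sources used here. The p-values thus measure the spread between libraries, which may be partly technical and may differ from that between mice.

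p53 is a transcription factor that is kept scarce in unstressed cells because MDM2, a ubiquitin ligase, marks it for degradation and because MDM4 covers its activation domain. *Mdm2* is itself a p53 target, so the pair forms a negative feedback loop. Other p53 targets include cyclin G1 (*Ccng1*), the RNA-binding protein ZMAT3, the AKT inhibitor PHLDA3 and sestrin 2 (*Sesn2*), which restrains mTORC1 and is also induced through ATF4 when amino acids are scarce. The GADD45 proteins are small stress sensors that bind PCNA, CDK1 and the kinase MAP3K4. *Gadd45a* is a p53 target, while *Gadd45b* is best known as an NF-κB and TGF-β target. In mTECs, p53 activity is of interest because these cells proliferate, mature and die quickly, and because they express many tissue-restricted genes.

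The deposited counts summed to between 61102704 and 65907745 per library. The *Sirt6* transcript was counted 622 and 755 times in WT but 882 and 835 times in the *Sirt6* cKO libraries, so it was not reduced there and every direction given here rests on the labels and not on the targeted transcript. A gene-level count includes reads from exons outside the floxed part, and the deleted exons could not be read from these files. The 12 epithelial and mTEC markers summed to between 19548 and 21329 CPM (counts scaled to the library total with edgeR's TMM factors) in WT. In the *Sirt6* cKO libraries they summed to between 20427 and 20908 CPM. The larger part came from *H2-Aa* (7527 and 7123 CPM in WT against 8228 and 7408 CPM) and *H2-Ab1* (9844 and 8474.5 CPM against 8223 and 7326.5 CPM). The sum therefore says little about the level of the other markers. Of the 12, 9 had a log2 fold change above 0 and 3 below. *Epcam*, *Aire* and *Cd80* among the 12 mTEC markers were higher at an unadjusted p under 0.05. Of 11 macrophage and dendritic cell markers, 6 were lower, and 9 had a log2 fold change below 0 and 2 above. The list summed to 6108 and 3599 CPM in WT and to 2578 and 2598 CPM in the *Sirt6* cKO libraries. Most of this was *Lyz2* (4647 and 2815 CPM against 1778 and 1907 CPM). The CD45- gate is meant to remove these cells. *Ptprc*, which encodes CD45, did not pass the test (362 and 264 CPM against 433 and 321 CPM). *H2-Aa*, *H2-Ab1*, *Lyz2* and *Ptprc* were named after their values were seen. Of 8 tuft cell markers, 7 were tested, since *Gng13* did not pass the filter on low counts. Of the 7, 4 were lower, and 5 had a log2 fold change below 0 and 2 above. The 7 summed to 293 and 338 CPM in WT and to 208 and 188 CPM in the *Sirt6* cKO libraries. Among the other lists, 2 of 8 cortical epithelial markers and 1 of 6 B cell markers were higher. Of 12 fibroblast and endothelial markers 1 was lower, and none of 10 thymocyte markers passed the test. Log2 fold changes above and below 0 numbered 4 and 4 for cortical epithelium and 2 and 4 for B cells. They numbered 6 and 6 for fibroblasts and endothelium and 3 and 7 for thymocytes. Beside these counts, 5.27% of all 18547 genes tested were higher and 3.32% were lower. No marker was at 0 in all 4 libraries. In bulk RNA, fewer cells of a type and less RNA per cell cannot be told apart, and the part that these cells have in the results was not tested.

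In the *Sirt6* cKO libraries, 5 of the 10 genes were higher at an unadjusted p under 0.05 and none was lower. The higher genes were *Ccng1*, *Gadd45b*, *Zmat3*, *Sesn2* and *Mdm2*, by 1.51-fold to 1.72-fold. Over all 18547 genes, 5.27% were higher and 3.32% were lower by the same test, which was edgeR's quasi-likelihood test. After Benjamini-Hochberg adjustment over all genes, none of the 10 passed 0.05 with edgeR, which called a single gene of the table, *Amd2* (0.00539%, listed at 0 in both WT libraries and named after its values were seen). DESeq2 called *Ccng1*, where it called 1.83% of the 19383 genes to which it gave an adjusted p. The median log2 fold change of the 10 genes was 0.59, beside -0.0047 for all genes tested. The 10 genes were chosen with earlier results of these data known. Neither their count nor their median was therefore tested against all genes. The *Sirt6* cKO libraries lay wholly above WT in CPM for the same 5 genes and wholly below WT for *Trp53*, while 21.6% of all genes lay wholly above and 20.3% wholly below. *Mdm2* and *Gadd45b* also appear in a cell cycle gene panel that the study drew from these libraries, so their direction there is not independent evidence.

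**Figure D1:**
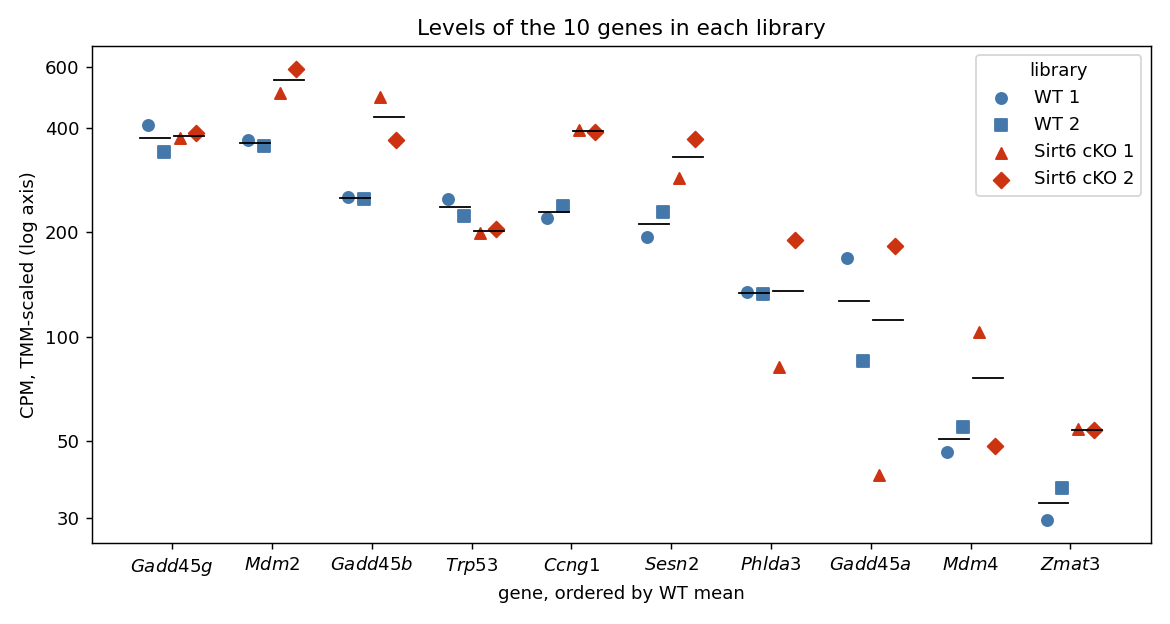
TMM-scaled CPM on a log axis for the 10 genes in each of the 4 libraries, ordered by the WT mean, with a short line at each group's mean. The red points of *Mdm2*, *Gadd45b*, *Ccng1*, *Sesn2* and *Zmat3* lie above both blue points, while those of *Gadd45a* and *Phlda3* lie on either side of them.

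*Trp53* had 249 and 224 CPM in WT and 199 and 205 CPM in the *Sirt6* cKO libraries. Both *Sirt6* cKO libraries were thus below both WT libraries, with means of 236 ± 18.2 (SD, n = 2) and 202 ± 4.22 CPM (SD, n = 2). This was a log2 fold change of -0.23 (standard error 0.16, 95% confidence interval -0.64 to 0.18), which did not pass the test (unadjusted p = 0.216, adjusted p = 0.750). No difference was thus called for the message that encodes p53. The p53 protein, which is regulated mainly through its stability, was not measured.

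*Mdm2*, the ligase that ends the p53 response, had 370.03 and 356 CPM in WT and 504 and 595 CPM in the *Sirt6* cKO libraries. The *Sirt6* cKO libraries were both higher, with *Sirt6* cKO 2 the highest of the 4. The means were 363 ± 9.65 (SD, n = 2) and 549.6 ± 64.4 CPM (SD, n = 2). This was a log2 fold change of 0.60 (standard error 0.16, 95% confidence interval 0.19 to 1.004), a 1.51-fold difference with an unadjusted p = 0.0123 and an adjusted p = 0.541. Without WT 2 or without *Sirt6* cKO 2 the unadjusted p was 0.0507 and 0.0737, at log2 fold changes of 0.57 and 0.46.

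*Mdm4*, the other inhibitor, did not pass the test. It had 46.4 and 54.7 CPM in WT, 103 CPM in *Sirt6* cKO 1 and 48.1 CPM in *Sirt6* cKO 2, so that a single library was high and the groups overlapped. Its log2 fold change of 0.58 had a 95% confidence interval of -0.41 to 1.58 (adjusted p = 0.736). The value depended on the *Sirt6* cKO library: it was -0.066 without *Sirt6* cKO 1 and 1.015 (unadjusted p = 0.0197) without *Sirt6* cKO 2. Of the 50-base words in the longest *Mdm4* transcript, 15.5% also occur in the pseudogene *Mdm4-ps*, which is not a name in the count table, so the counts of *Mdm4* are less certain than those of *Mdm2*.

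Because both genes were read in the same library, the count of *Mdm2* over that of *Trp53* does not change with the scaling of libraries. It was 1.48 and 1.59 in WT and 2.54 and 2.91 in the *Sirt6* cKO libraries, so the target and inhibitor stood higher against its own activator in both *Sirt6* cKO libraries, by 1.77-fold. The exact two-sided permutation test gave p = 0.333, the smallest value that 2 libraries against 2 allow, here and for every ratio given below. *Mdm2* over *Mdm4* was 7.98 and 6.52 in WT and 4.88 and 12.4 in the *Sirt6* cKO libraries, which lay on either side of WT (exact permutation p = 1.0).

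Of the p53 targets, *Ccng1* gave the most even difference. This unusual cyclin has no clear role in driving the cell cycle and recruits protein phosphatase 2A to MDM2. It had 219 and 238 CPM in WT and 395 and 390 CPM in the *Sirt6* cKO libraries, so that the gap between the groups far exceeded the gap within either. The means were 229 ± 13.3 (SD, n = 2) and 393 ± 4.09 CPM (SD, n = 2). This was a log2 fold change of 0.78 (standard error 0.15, 95% confidence interval 0.39 to 1.17), a 1.72-fold difference, with an adjusted p = 0.541 from edgeR and 0.0189 from DESeq2, the lowest of 12 alternatives, which reached 1.0. Its unadjusted p stayed under 0.05 with any 1 library left out, at log2 fold changes of 0.70 to 0.84.

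*Zmat3*, whose product binds AU-rich RNA and affects splicing, was the least abundant of the 10 on the TPM scale given below. It had 29.4 and 36.5 CPM in WT and 54.0 and 53.7 CPM in the *Sirt6* cKO libraries, and the groups did not overlap. The log2 fold change was 0.71 (standard error 0.24, 95% confidence interval 0.10 to 1.32, unadjusted p = 0.0305, adjusted p = 0.548). It was the least secure of the 5 calls, since it passed the unadjusted threshold in 4 of 8 other settings with all libraries and, of the 4 fits that left out 1 library, in the fit without WT 2 alone.

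*Sesn2* had 194 and 229 CPM in WT and 288 and 373 CPM in the *Sirt6* cKO libraries. All of its *Sirt6* cKO values were above WT, but the libraries of each group were farther apart than for *Ccng1*. The log2 fold change was 0.65 (standard error 0.20, 95% confidence interval 0.13 to 1.16, unadjusted p = 0.0223, adjusted p = 0.541), a 1.57-fold difference. It lost the unadjusted threshold without WT 1 (log2 fold change 0.51, unadjusted p = 0.114) and without *Sirt6* cKO 2 (log2 fold change 0.43, unadjusted p = 0.139). Neither of its relatives passed the test. *Sesn1*, the p53-responsive sestrin, had 89.6 and 122 CPM in WT and 53.8 and 76.4 CPM in the *Sirt6* cKO libraries (log2 fold change -0.70, unadjusted p = 0.0509), and *Sesn3*, which is better known as a FOXO target, had 4.35 and 8.89 CPM in WT and 14.0 and 9.46 CPM in the *Sirt6* cKO libraries (log2 fold change 0.82, unadjusted p = 0.146). These relatives were named after their values were seen.

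*Phlda3* gave no common direction. It had 135 and 133 CPM in WT, 81.8 CPM in *Sirt6* cKO 1 and 190 CPM in *Sirt6* cKO 2, so that its *Sirt6* cKO libraries lay on either side of a WT level that hardly varied. Its log2 fold change was 0.02 with a 95% confidence interval of -0.99 to 1.03 (adjusted p = 0.992). It was -0.72 (unadjusted p = 0.0437) without *Sirt6* cKO 2 and 0.51 (unadjusted p = 0.0867) without *Sirt6* cKO 1.

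Of the 3 *Gadd45* genes, only *Gadd45b* passed the unadjusted threshold. It had 253 and 250.4 CPM in WT and 493 and 369 CPM in the *Sirt6* cKO libraries. WT libraries were nearly equal, and both *Sirt6* cKO libraries were above them, *Sirt6* cKO 1 the most. The means were 252 ± 2.06 (SD, n = 2) and 431 ± 87.5 CPM (SD, n = 2). This was a log2 fold change of 0.77 (standard error 0.20, 95% confidence interval 0.28 to 1.27), a 1.71-fold difference with an unadjusted p = 0.00924, an adjusted p = 0.541 from edgeR and an adjusted p = 0.0792 from DESeq2, the lowest of 12 alternatives, which reached 1.0. It passed the unadjusted threshold with any 1 library left out, at log2 fold changes of 0.55 to 0.95.

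*Gadd45g* had 408 and 341 CPM in WT and 375 and 386 CPM in the *Sirt6* cKO libraries, which lay between the WT values. Its log2 fold change was 0.02 with a 95% confidence interval of -0.40 to 0.44 (adjusted p = 0.983), and it turned slightly negative with other scalings (-0.058 with upper quartiles and -0.064 with library size alone), so no direction was seen. *Gadd45a* was the most variable of the 10. It had 169 and 84.7 CPM in WT, 39.8 CPM in *Sirt6* cKO 1 and 183 CPM in *Sirt6* cKO 2, the lowest and the highest value of the gene both coming from *Sirt6* cKO libraries. Its log2 fold change of -0.19 had a 95% confidence interval of -2.02 to 1.65 (adjusted p = 0.966), which leaves room for a large difference either way. It was -1.685 (unadjusted p = 0.0172) without *Sirt6* cKO 2, 0.53 without *Sirt6* cKO 1 and 0.37 without WT 1. The gene shares 337 exonic bases with the antisense transcript *E230016M11Rik*, and since the strand setting of the counting is not given in the sources used here, reads of this stretch cannot be assigned. *E230016M11Rik* itself had between 20 and 83 counts per library.

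Within libraries, the count of *Gadd45b* over that of *Gadd45g* was 0.620 and 0.735 in WT and 1.32 and 0.955 in the *Sirt6* cKO libraries, 1.66-fold higher with no overlap (exact permutation p = 0.333). *Gadd45b* over *Gadd45a* was 1.498 and 2.95 in WT and 12.4 and 2.02 in the *Sirt6* cKO libraries, and *Gadd45a* over *Gadd45g* was 0.414 and 0.249 in WT and 0.106 and 0.473 in the *Sirt6* cKO libraries. Those ratios overlapped between the groups (exact permutation p = 0.667 and 1.0). Within the family the groups thus separated for *Gadd45b* against *Gadd45g* and not for either ratio with *Gadd45a*.

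**Figure D2:**
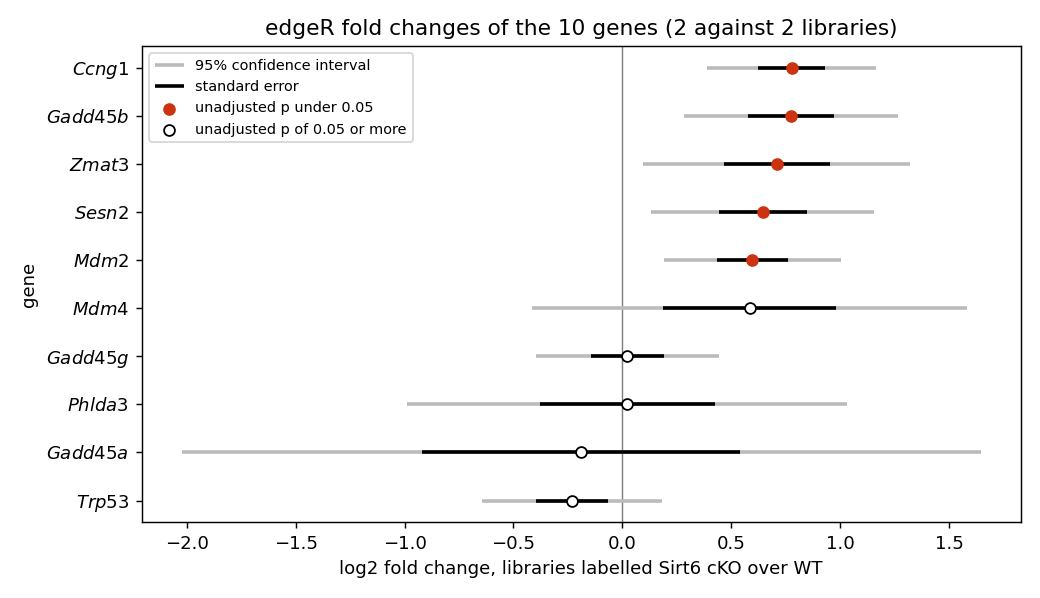
Log2 fold change of each of the 10 genes in the libraries labelled *Sirt6* cKO over WT, from edgeR with 2 against 2 libraries, with the standard error in black and the 95% confidence interval in grey. Filled points mark the 5 genes with an unadjusted p under 0.05, from *Mdm2* (0.60) to *Ccng1* (0.78), and the widest interval is that of *Gadd45a*.

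*Gadd45a*, *Phlda3* and *Mdm4* had the widest intervals of the 10 and the largest gaps between the *Sirt6* cKO libraries. *Sirt6* cKO 2 exceeded *Sirt6* cKO 1 by 4.597-fold for *Gadd45a* and by 2.32-fold for *Phlda3*, and *Sirt6* cKO 1 exceeded *Sirt6* cKO 2 by 2.15-fold for *Mdm4*. The WT libraries also differed for *Gadd45a*, by 1.995-fold. Among genes of similar mean level, 0.292% had a gap between the *Sirt6* cKO libraries, in either direction, as large as that of *Gadd45a*. For *Phlda3* and *Mdm4* this share was 1.71% and 4.82%. Over all genes tested, whatever their level, 12.1% were more than 2-fold lower in *Sirt6* cKO 1 than in *Sirt6* cKO 2, and 9.96% were more than 2-fold higher. Of 40 further p53 targets, 2 were that much lower in *Sirt6* cKO 1, which were *Plk3* (23.5 against 166 CPM) and *Ppm1d* (29.5 against 94.9 CPM). In turn, 4 were that much higher in *Sirt6* cKO 1, among them *Trp53inp1* (128 against 42.5 CPM) and *Ei24* (14.5 against 3.38 CPM), all named after their values were seen. The targets with large gaps between the *Sirt6* cKO libraries therefore did not all point to the same library.

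**Figure D3:**
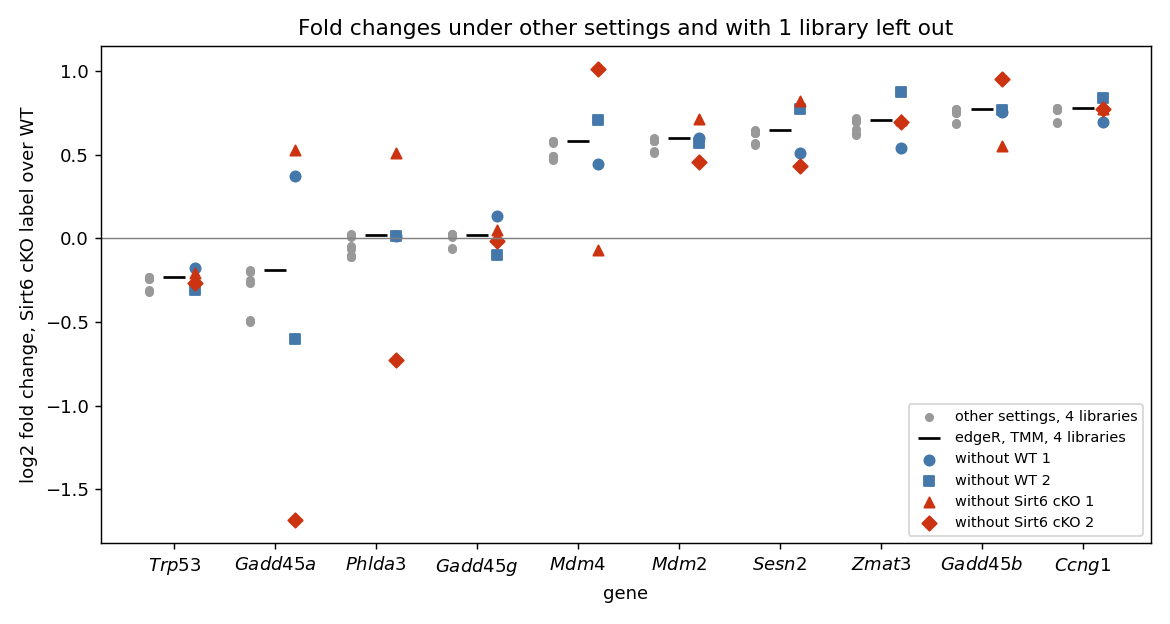
Log2 fold change of each gene, libraries labelled *Sirt6* cKO over WT, with TMM scaling and all libraries (black bar), under the other settings with all libraries (grey points) and with 1 library left out (coloured points). *Ccng1* stays between 0.69 and 0.84 throughout, while *Gadd45a* ranges from -1.685 to 0.53 as single libraries are left out.

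Levels of different genes were compared on the TPM scale, which corrects for transcript length. In WT, *Gadd45g* had the highest mean at 762 TPM, followed by *Gadd45b* (437), *Trp53* (290.2), *Mdm2* (264), *Gadd45a* (227), *Phlda3* (200.5), *Sesn2* (175), *Ccng1* (144), *Mdm4* (31.9) and *Zmat3* (9.32). Neighbours in this order did not overlap between libraries, except *Gadd45a*, which overlapped *Mdm2* and *Phlda3*. In the *Sirt6* cKO libraries *Gadd45g* (770 TPM) and *Gadd45b* (743 TPM) overlapped, *Mdm2* (397 TPM) came next, and *Sesn2* (272), *Ccng1* (246), *Trp53* (246) and *Phlda3* (203) each overlapped the next in order, the last of them *Gadd45a* (199), which did not overlap *Mdm4*. *Mdm4* (47.4 TPM) and *Zmat3* (15.1 TPM) stayed last. *Mdm2* thus had a mean TPM below that of *Trp53* in WT and above it in the *Sirt6* cKO libraries. The ratio of counts to TPM of each gene agreed between libraries to within 1.005-fold, so one effective length per gene was used throughout and these files carry no information on isoforms.

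The promoters of 5 of the genes are shown because 4 of them belong to the group of higher genes and *Gadd45a* does not. Each window runs from 250 bases before to 50 bases after the start of the gene in RefSeq on GRCm38.p6, the build of mm10, read 5′ to 3′ on the strand of the gene. Capitals mark matches to the p53 half-site and to the CCAAT box (CCAAT on either strand), which is the site of NF-Y. Of the 10 genes, 9 had an entry. *Zmat3* had none.
Mdm2, chr10:117710709-117711008, minus strand: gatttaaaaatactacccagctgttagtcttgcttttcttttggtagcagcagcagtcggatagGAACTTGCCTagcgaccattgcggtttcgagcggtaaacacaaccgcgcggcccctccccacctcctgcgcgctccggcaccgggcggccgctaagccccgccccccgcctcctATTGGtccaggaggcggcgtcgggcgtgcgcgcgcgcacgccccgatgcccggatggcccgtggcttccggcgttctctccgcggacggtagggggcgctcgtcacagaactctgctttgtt
Ccng1, chr11:40755237-40755536, minus strand: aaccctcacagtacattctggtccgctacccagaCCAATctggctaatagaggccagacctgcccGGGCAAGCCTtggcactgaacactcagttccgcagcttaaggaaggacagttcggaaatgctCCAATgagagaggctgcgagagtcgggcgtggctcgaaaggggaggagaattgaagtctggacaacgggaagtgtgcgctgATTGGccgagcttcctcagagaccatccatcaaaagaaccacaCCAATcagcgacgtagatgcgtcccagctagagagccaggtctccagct
Sesn2, chr4:132510407-132510706, minus strand: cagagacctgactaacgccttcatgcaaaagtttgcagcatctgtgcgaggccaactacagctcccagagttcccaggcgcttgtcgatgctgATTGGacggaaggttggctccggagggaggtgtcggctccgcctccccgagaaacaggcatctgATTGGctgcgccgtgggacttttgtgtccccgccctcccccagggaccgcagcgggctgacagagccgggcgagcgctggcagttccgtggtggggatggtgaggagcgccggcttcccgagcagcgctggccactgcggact
Gadd45b, chr10:80929841-80930140, plus strand: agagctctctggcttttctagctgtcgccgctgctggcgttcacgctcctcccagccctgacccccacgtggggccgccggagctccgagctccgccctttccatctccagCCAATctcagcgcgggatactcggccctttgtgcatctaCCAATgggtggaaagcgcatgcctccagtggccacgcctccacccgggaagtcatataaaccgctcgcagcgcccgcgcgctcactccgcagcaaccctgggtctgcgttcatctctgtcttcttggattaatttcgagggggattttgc
Gadd45a, chr6:67037358-67037657, minus strand: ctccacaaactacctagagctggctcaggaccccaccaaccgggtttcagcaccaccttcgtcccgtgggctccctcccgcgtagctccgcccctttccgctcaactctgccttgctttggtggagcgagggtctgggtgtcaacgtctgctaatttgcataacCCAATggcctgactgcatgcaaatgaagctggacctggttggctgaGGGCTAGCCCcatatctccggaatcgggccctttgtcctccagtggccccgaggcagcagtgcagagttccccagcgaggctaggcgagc

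A p53 half-site was found in 4 of the 9 genes, *Trp53*, *Mdm2*, *Gadd45a* and *Ccng1*, and in 8.36% of all 32851 promoter windows of this length. It began 186 bases before the start in *Mdm2*, 185 before it in *Ccng1*, 75 before it in *Trp53* and 40 before it in *Gadd45a*. Of the genes that hold it, *Mdm2* and *Ccng1* were higher in the *Sirt6* cKO libraries, *Gadd45a* had no direction, and *Trp53* did not pass the test. Windows of *Sesn2* and *Gadd45b*, which were also higher, held no match. *Mdm2* is known to be induced by p53 mainly through a second promoter in its first intron, which lies outside this window. CCAAT boxes were found in 7 of the 9 genes against 37.4% of all windows, with 4 in *Ccng1* and 2 each in *Sesn2* and *Gadd45b*. An NF-κB site was found in *Trp53* alone (8.46% of all windows), 5 bases before the start and overlapping its CCAAT box, and an ATF4 composite element (TGATGNAA on either strand) in *Gadd45g* alone (3.97% of all windows). A match describes letters in a window and is not evidence of binding.

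On GRCm38 with the GENCODE M21 annotation, *Mdm2* lies on the minus strand of chromosome 10 from 117688875 to 117710758, and *Gadd45b* on the plus strand of the same chromosome from 80930073 to 80932204. *Trp53* and *Ccng1* lie on chromosome 11, from 69580359 to 69591873 and from 40748552 to 40755311. *Mdm4* and *Phlda3* lie on chromosome 1, from 132959484 to 133030561 and from 135766119 to 135769136. *Gadd45a* lies on chromosome 6 from 67035096 to 67037457, *Gadd45g* on chromosome 13 from 51846678 to 51848468, *Sesn2* on chromosome 4 from 132492032 to 132510501 and *Zmat3* on chromosome 3 from 32334792 to 32366014. Exons of *Gadd45b*, *Gadd45g*, *Sesn2*, *Ccng1* and *Phlda3* shared no 50-base word of their longest transcript with another gene. In *Mdm2*, *Zmat3* and *Trp53* the shared part was 0.484%, 1.3% and 3.04%.

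Of 40 further p53 targets, 3 were higher at an unadjusted p under 0.05, none was lower and 37 did not pass, a share near the 5.27% of all genes that were higher by the same test. Their median log2 fold change was 0.23, with 26 above 0 and 14 below. *Perp*, a desmosome gene of epithelia, had 496 and 612 CPM in WT and 896 and 920 CPM in the *Sirt6* cKO libraries (log2 fold change 0.71, standard error 0.17, unadjusted p = 0.00645, adjusted p = 0.541). *Pidd1*, listed under its older symbol *Lrdd*, encodes the scaffold of the PIDDosome and had 5.81 and 7.32 CPM in WT and 19.6 and 11.6 CPM in the *Sirt6* cKO libraries (log2 fold change 1.25, adjusted p = 0.541). *Psrc1*, a spindle gene, had 28.0 and 10.7 CPM in WT and 43.1 and 47.4 CPM in the *Sirt6* cKO libraries (log2 fold change 1.22, adjusted p = 0.580). Its fold change rested on the WT library kept, at 2.05 without WT 1 and 0.69 without WT 2, and its unadjusted call was lost with upper quartiles, with library size alone and in 3 of the 4 fits that left out a library. The count was 4 higher with DESeq2 and 2 with upper quartiles or library size alone, and 1 or 2 were lower in each of the 8 other settings with all libraries, *Sesn1* each time among them.

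*Cdkn1a*, the p21 cell cycle inhibitor and the best known p53 target, had 196 and 247 CPM in WT and 248.0 and 296 CPM in the *Sirt6* cKO libraries. The lower *Sirt6* cKO library only just exceeded the higher WT library. Its log2 fold change was 0.30 (standard error 0.20, 95% confidence interval -0.21 to 0.80, adjusted p = 0.735), so a difference the size of that of *Ccng1* lies near the edge of its interval. Of the targets linked to cell death, 6 are given here beside *Perp* and *Lrdd*, which were higher as given above. The 6 did not share a value. *Tnfrsf10b*, a death receptor gene, had a log2 fold change of 1.07 (unadjusted p = 0.0583) and *Apaf1* of 0.53, while *Bax* had a log2 fold change of 0.06, *Bbc3* (PUMA) of -0.06, *Pmaip1* (NOXA) of 0.27 and *Fas* of 0.15. None of these 6 passed the test, and they were named after their values were seen. They are not all of the death-linked targets on the list.

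**Figure D4:**
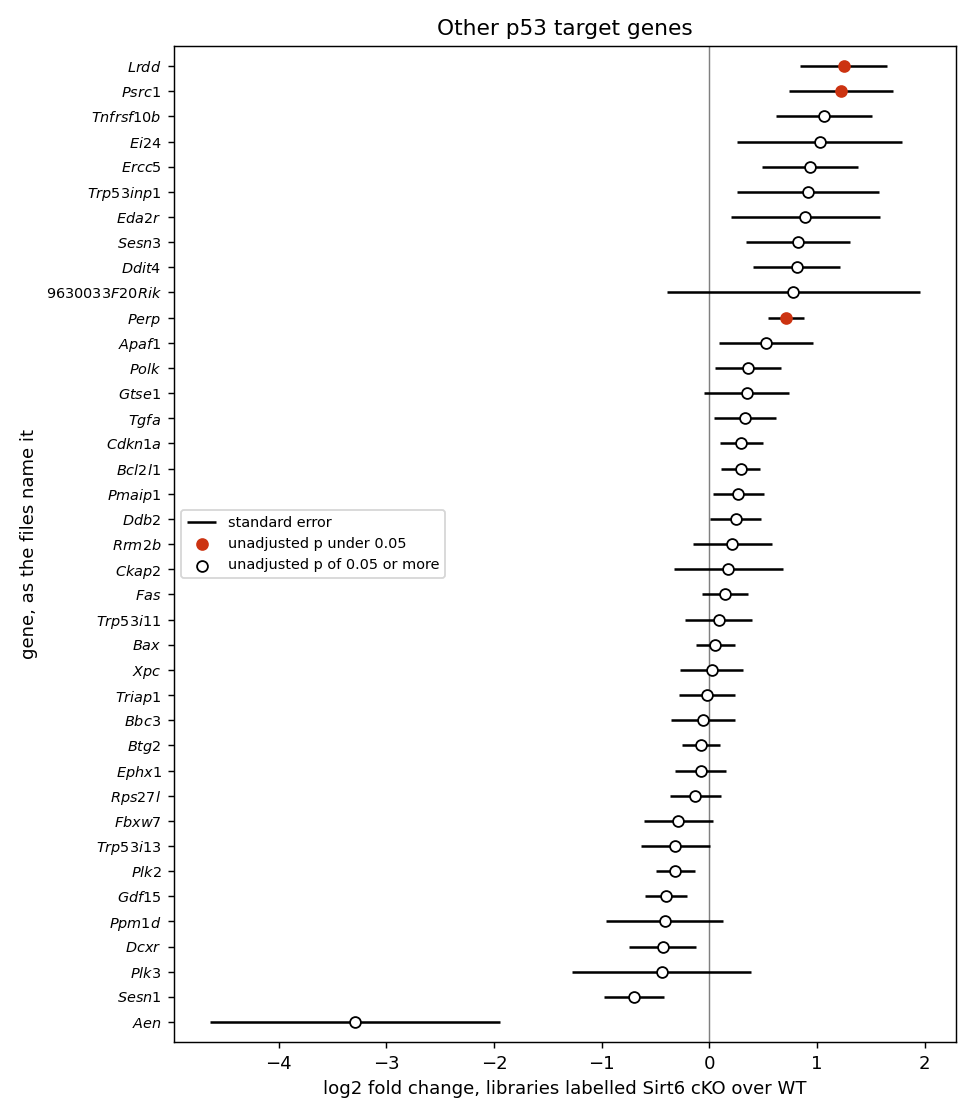
Log2 fold change of 39 of the 40 further p53 target genes, libraries labelled *Sirt6* cKO over WT, from edgeR, with standard errors. Filled points mark *Lrdd*, *Psrc1* and *Perp*, the 3 genes with an unadjusted p under 0.05. Most of the rest lie within 1 of 0, and *Aen*, at the bottom, was high in 1 WT library only.

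Of 30 regulators of p53 (kinases, ubiquitin ligases, acetyltransferases and ribosomal proteins), 1 was higher and none was lower, no more than over all genes (5.27% and 3.32%), with a median log2 fold change of 0.068. The higher gene was *Trp53bp2*, which encodes ASPP2, a binding partner that steers p53 toward death genes, at 56.4 and 55.8 CPM in WT and 95.1 and 80.4 CPM in the *Sirt6* cKO libraries (log2 fold change 0.65, adjusted p = 0.541). Of 14 partners of the GADD45 proteins, *Map3k4*, the kinase they activate, was higher (21.7 and 23.6 CPM against 45.1 and 33.1 CPM, log2 fold change 0.79, adjusted p = 0.550), none was lower, and the median was -0.12. *Map3k4* kept its unadjusted call in 4 of 8 other settings with all libraries and in 1 of the 4 fits that left out a library. None of 9 family relatives, such as *Ccng2*, *Phlda1* and *Zmat2*, passed the test in either direction, with a median of -0.012.

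Around *Sesn2*, 2 of 19 genes of the sestrin and mTORC1 branch were higher and none was lower. Over all genes tested, 5.27% were higher and 3.32% were lower by the same test. The median log2 fold change of the 19 genes was 0.22. *Sqstm1*, the autophagy receptor p62, which binds sestrin 2, had 1169 and 1221 CPM in WT and 1853 and 1916 CPM in the *Sirt6* cKO libraries (log2 fold change 0.66, adjusted p = 0.541 from edgeR and 0.0454 from DESeq2, with alternatives up to 1.0). *Prkaa1*, a catalytic subunit of AMPK, had 40.2 and 22.7 CPM in WT and 66.2 and 65.3 CPM in the *Sirt6* cKO libraries (log2 fold change 1.06, adjusted p = 0.541). *Sesn2* is also a target of ATF4, and of 20 genes of the integrated stress response 3 were higher and 1 was lower, with a median of 0.25. *Atf4* had 238 and 247 CPM in WT and 494 and 328 CPM in the *Sirt6* cKO libraries (log2 fold change 0.76), and *Atf3* had 393 and 493 CPM against 669 and 728 CPM (0.66). The cystine transporter gene *Slc7a11* had a log2 fold change of 1.04, whereas the asparagine synthetase gene *Asns*, a classical ATF4 target, was lower (69.3 and 48.2 CPM against 37.0 and 29.0 CPM, log2 fold change -0.83). Adjusted p was 0.541 to 0.550 for these 4 genes. Of the 20 genes of this list, 15 had a log2 fold change above 0 and 5 below. The part that ATF4 has in the level of *Sesn2* was not tested.

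*Gadd45b* belongs to the genes that cells switch on within minutes of stimulation, tissue dissociation included. The median log2 fold change of 19 immediate early genes was 0.21. Of the 19, 5 were higher and none was lower, beside 5.27% and 3.32% of all genes tested. They were *Zfp36* (0.51), *Hspa1a* (0.73), *Egr1* (0.48), *Fosb* (1.20) and *Jun* (0.38), with adjusted p of 0.541 to 0.548 for the first 4, and *Jun* was named after its values were seen. Of the 19, 14 had a log2 fold change above 0 and 5 below. *Fos*, the gene most often used to mark this response, had a log2 fold change of 0.01, and that of *Dusp1* was -0.02. *Fos* and *Dusp1* were likewise named after their values were seen. The list summed to 15742 and 17370 CPM in WT and to 19248 and 21157 CPM in the *Sirt6* cKO libraries. The part that cell handling has in the level of *Gadd45b* was not tested. Of the genes named from the pathway lists by their p, *Perp*, *Sqstm1* and *Hspa1a* kept their unadjusted call with any 1 library left out, whereas *Psrc1*, *Trp53bp2*, *Map3k4*, *Prkaa1*, *Atf4* and *Asns* kept it in 1 of the 4 such fits and *Lrdd*, *Atf3*, *Slc7a11*, *Zfp36*, *Egr1* and *Fosb* in 2 or 3.

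The genes whose pattern over the 4 libraries was most like that of *Mdm2* were *Sv2b*, *C230081A13Rik* and *Rtbdn*, at Euclidean distances of 0.0327, 0.0362 and 0.0452 in log2 CPM centred on the mean of each gene. For *Gadd45b* they were *4930583H14Rik* (0.0427), *6330503K22Rik* (0.0428) and *Csn2* (0.0546). With 4 libraries such likeness is common, since 169 genes lay within 0.2 of *Mdm2* and 97 within 0.2 of *Gadd45b*.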

How the data were processed

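RNA-seq of sorted mTECs gave 4 libraries. The authors used Trim Galore for trimming, HISAT2 2.1.0 for alignment to mm10 and StringTie 1.3.3 for quantification. Annotation and strand setting are not given in the sources used here. The deposited counts are whole numbers without normalization, with 61102704 to 65907745 per library. The authors also deposited StringTie's TPM values, from which a total line without a gene name, equal to the sum of all genes, was left out. The members and the pathway lists were chosen with earlier results of these data known, so no list was tested as a set. Counts were tested with edgeR 4.0.16 in R 4.3.3 (TMM, filterByExpr at min.count 10 and min.total.count 15, quasi-likelihood test, Benjamini-Hochberg over 18547 genes) on all 4 libraries without covariates. The standard error is the log2 fold change over the root of F. Ratios of counts were compared with exact two-sided permutation tests, which cannot go below 0.333. Named genes were the 10 genes, *Sirt6*, *Cdkn1a*, at most 4 genes per direction and list with an unadjusted p under 0.05, and the 3 nearest genes to *Mdm2* and *Gadd45b*. Alternatives were DESeq2 1.42.0, no filter, upper quartiles, a TPM above 0.1 in each library (the authors' filter), a replicate block, unscaled library sizes, limma 3.58.1 on log2(TPM + 1) and log2(TPM + 0.1), and each library left out. The limma fold changes are thus on a log2(TPM + pseudocount) scale. Every pair of libraries differed by more than sampling noise (chi-square per gene of 154.4 or more). The procedure was also run on simulated negative binomial counts, and no result given here rests on that run. A gene of the p53 target list enters its counts but is not reported here.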

Additional observations from a re-analysis of the deposited data

How the results depend on the processing

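With all 4 libraries, the number of the 10 genes higher at an unadjusted p under 0.05 was 5, and 4 to 5 in the other settings. *Ccng1*, *Gadd45b*, *Mdm2* and *Sesn2* passed in all 8 of them and *Zmat3* in 4. Leaving out 1 library gave 3 to 4 (3 without WT 1 and without *Sirt6* cKO 2) and 0 to 2 lower, the 2 being *Gadd45a* and *Phlda3* without *Sirt6* cKO 2. The number past an adjusted p was 0, and 1 with DESeq2. For the 40 p53 targets the number higher was 3, and 3 to 6 with a library left out (5 without WT 1, 6 without *Sirt6* cKO 2). The number lower was 0, and 2 without a filter, with the authors' filter, with upper quartiles, with library size alone, with DESeq2 and with both limma fits, 1 with the replicate block, and 0 to 3 with a library left out (3 without WT 1 and without *Sirt6* cKO 2). Of the alternative fold changes of the 10 genes, 94 kept their direction and their side of the unadjusted threshold, 11 lost it, 2 gained it and 13 reversed. The reversed ones were *Mdm4* (-0.066 without *Sirt6* cKO 1, against 1.015 without *Sirt6* cKO 2), *Gadd45a* (0.37 without WT 1, 0.53 without *Sirt6* cKO 1, against -1.685 without *Sirt6* cKO 2), *Gadd45g* (-0.058 with upper quartiles, -0.064 with library size alone, -0.10 without WT 2, -0.014 without *Sirt6* cKO 2, against 0.136 without WT 1) and *Phlda3* (-0.046 with upper quartiles, -0.064 with library size alone, -0.10 with the replicate block, -0.11 with both limma fits, -0.72 without *Sirt6* cKO 2, against 0.51 without *Sirt6* cKO 1). The log2 difference of ratios with a library left out ran from 0.72 to 0.92 for *Mdm2* over *Trp53* and from 0.50 to 0.96 for *Gadd45b* over *Gadd45g*. It reversed for *Mdm2* over *Mdm4* (-0.56 to 0.78, among them -0.039 without WT 2), *Gadd45b* over *Gadd45a* (-0.060 to 2.56) and *Gadd45a* over *Gadd45g* (-1.60 to 0.56). The causes were not tested. Over all genes, 61.4% of calls at the unadjusted p were higher with TMM (977 higher, 615 lower), 48.4% with upper quartiles, 46.2% with library size alone and 51.0% and 51.2% with limma. Upper quartiles and library size alone shifted the median of all genes by less than 0.1 on the log2 scale. WT and *Sirt6* cKO libraries share only a replicate number: their deviations correlated at -0.0507 over genes. The block left 697 genes higher and 449 lower, 4 of the 10 genes higher and *Zmat3* at an unadjusted p = 0.053. With a library left out, the single library of that group was assumed to vary like the other group.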
